A study of Mus musculus with 8 samples.

Results

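Metallothioneins, their metal-sensing regulator and 4 carriers of zinc and related metals were read in the livers of 8 ethanol-fed mice, 4 with hepatocyte Cebpa intact and 4 without it. The set holds 7 genes (Mt1, Mt2, Mtf1, Slc39a14, Slc39a8, Slc30a1 and Slc30a10) of the 55450 gene rows in each liver's table, and it was chosen by gene symbol and not by any measured value. All 7 had enough counts to be tested. None of the 7 was called different between the genotypes (edgeR quasi-likelihood test, p below 0.05 after adjustment over all genes tested), against 2.06% of all 13303 genes tested.

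Every mouse carried floxed Cebpa. Controls had no Cre. Knockouts carried Cre and are labelled as lacking Cebpa in hepatocytes, and the labels name no promoter for the Cre. Mice were 10 weeks old at the start, spent 5 days on a control liquid diet to adapt and then received liquid food containing ethanol at 5% by volume over 4 weeks. All groups therefore shared the ethanol, and livers without it were not analysed here. The comparison is between genotypes under alcohol, and the effect of alcohol itself is not among the values. The labels do not say that each liver came from a separate litter or cage, and p-values measure only the spread between these 8 samples. Between 21048350 and 28148744 counts were assigned to genes per liver. A single count corresponded to 0.0341 to 0.0485 CPM, the unit of level used below, which scales counts to library size.

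Metallothioneins are small cysteine-rich proteins that bind zinc, copper and cadmium and buffer the free zinc of the cell. When free zinc rises, the zinc-finger factor MTF1 enters the nucleus and binds metal response elements in the promoters of metallothionein genes and of the zinc exporter gene Slc30a1. In liver, glucocorticoids and the inflammatory cytokine IL-6 also induce metallothioneins and, for IL-6, the importer ZIP14. Carriers of the SLC39 (ZIP) family move zinc into the cytosol, and those of the SLC30 (ZnT) family move it out of the cytosol. ZIP14 (Slc39a14) and ZIP8 (Slc39a8) also carry manganese and iron, and ZnT10 (Slc30a10) exports manganese.

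Labels and tissue were checked on marker genes. Cebpa ranged from 263.6 to 320.3 CPM in controls and from 5.44 to 9.26 CPM in knockouts, a 41.5-fold difference in the direction of the labels in all 8 livers. The albumin gene Alb stood at 62852 to 95904 CPM in controls and 85924 to 96109 CPM in knockouts. The summed hepatocyte markers, most of them Alb, reached 82068 to 119211 CPM in controls and 106530 to 118703 CPM in knockouts. Of these 8 markers 3 had positive and 5 negative log2 fold changes, with a median of -0.16. An unadjusted edgeR p under 0.05 was found for 1 in each direction, and 0 were called. Of all genes tested 18.5% had such a p and 2.06% were called. Control 2 and knockout 4 had been seen to stand apart from their groups in an earlier analysis of these data, so fits without them were also made.

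The 2 metallothionein genes lie beside each other on chromosome 8 of mm10 and read in the same direction. Mt2 spans 94172664 to 94173568 and Mt1 spans 94179082 to 94180327, both on the plus strand, with 5513 bases between them. Slc30a10 (chromosome 1, 185454848 to 185468762) and Slc30a1 (chromosome 1, 191906767 to 191913247) are on the plus strand too. So are Mtf1 (chromosome 4, 124802104 to 124849800) and Slc39a8 (chromosome 3, 135825279 to 135888572). Slc39a14 is on the minus strand (chromosome 14, 70303469 to 70351425). All 7 are protein-coding. The tables list them as ENSMUSG00000031762.7 (Mt2), ENSMUSG00000031765.8 (Mt1), ENSMUSG00000026614.6 (Slc30a10), ENSMUSG00000037434.7 (Slc30a1), ENSMUSG00000028890.13 (Mtf1), ENSMUSG00000053897.15 (Slc39a8) and ENSMUSG00000022094.15 (Slc39a14).

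Promoter stretches are shown for the neighbouring metallothionein genes, whose levels moved together, and for Slc30a10, which had the largest fitted difference of the set. They are RefSeq sequence of GRCm38.p6, the assembly behind mm10, on the plus strand, up to 250 bases before the RefSeq start and ending before the first transcript base annotated for the gene. Capitals mark the core of the metal response element, TGCACNC or TGCGCNC on either strand. The stretches are chr8:94178839-94179081 for Mt1, chr8:94172368-94172617 for Mt2 and chr1:185454598-185454847 for Slc30a10.
Mt1: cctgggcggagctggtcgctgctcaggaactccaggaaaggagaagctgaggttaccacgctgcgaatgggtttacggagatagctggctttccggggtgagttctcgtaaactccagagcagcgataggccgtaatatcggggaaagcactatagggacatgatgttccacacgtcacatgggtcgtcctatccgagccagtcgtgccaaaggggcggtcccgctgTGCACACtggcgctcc
Mt2: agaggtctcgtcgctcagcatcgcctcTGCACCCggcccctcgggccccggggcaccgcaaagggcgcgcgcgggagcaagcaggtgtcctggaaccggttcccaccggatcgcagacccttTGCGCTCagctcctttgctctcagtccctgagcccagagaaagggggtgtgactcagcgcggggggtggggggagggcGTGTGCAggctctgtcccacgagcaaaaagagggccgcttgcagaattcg
Slc30a10: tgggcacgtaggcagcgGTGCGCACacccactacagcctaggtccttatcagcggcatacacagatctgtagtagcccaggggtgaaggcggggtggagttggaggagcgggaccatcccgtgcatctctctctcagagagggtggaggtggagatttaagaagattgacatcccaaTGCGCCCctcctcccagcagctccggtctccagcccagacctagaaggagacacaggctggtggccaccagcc

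The Mt1 stretch held 1 core match, 23 bases before the RefSeq start. Mt2 held 3, at 223, 128 and 50 bases before its start, the nearest of them on the minus strand, and its stretch lies inside the antisense gene Gm45774 (94170748 to 94173412), which had 9 counts in controls and 13 in knockouts. Slc30a10 also held 3, of which those at 233 and 232 bases overlap each other on opposite strands and the third lies at 73 bases. Across 32851 promoter windows of 27025 genes, 21.4% held at least 1 core match and 1.26% held at least 3 in the same 250 bases. In Slc30a1 there was 1 match, in Slc39a8 0 in the first and 1 in the second of its 2 windows, and in Mtf1 0. The C/EBP letters TTGCNNAA occurred once in the Mt2 window and in none of the other windows of the set, against 9.56% of all windows. An antioxidant element (TGACNNNGC) occurred once each in the windows of Mt2 and Slc30a1 and in the first of Slc39a8, against 10.2% of all windows. STAT letters (TTCNNNGAA, 7.02% of windows) were in none of these windows, and the E-box CACGTG (6.02%) was in the second Slc39a8 window only. A match describes letters and not binding. Only letters before the RefSeq start used were read. Cores after that start, or before a start without a window, were not counted, for Mt1 as for the others. The counts therefore do not rank the genes by their metal response elements.

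Per unit of transcript length, metallothioneins were the most abundant of the set by a wide margin. In TPM, which also divide by gene length and so allow levels of different genes to be compared, Mt1 averaged 473 ± 133 (SD over 8 livers) and Mt2 459 ± 185. ZIP14 transcripts averaged 84.1 TPM, those of the plasma-membrane zinc exporter Slc30a1 11.5 TPM, and those of ZIP8 8.23 TPM. Mtf1 averaged 5.04 TPM and Slc30a10 3.38 TPM. Among 23265 genes with a mean TPM above 0, Mt1 and Mt2 ranked at 226 and 232, Slc39a14 at 1151 and Slc30a10 at 8846. The order held in 8 of 8 livers for Mt2 over Slc39a14, for Slc39a14 over Slc30a1 and for Slc39a8 over Mtf1. It held in 7 of 8 for Slc30a1 over Slc39a8 and for Mtf1 over Slc30a10. Mt1 exceeded Mt2 in 6 of 8 livers, so the levels of that pair did not differ beyond their spread. The remaining metallothionein genes, the brain form Mt3 and the squamous epithelial form Mt4, had 0 counts in all 8 livers, which allows up to 0.0160 CPM each over the 8 libraries pooled (3 counts, counting error only).

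**Figure D1:**
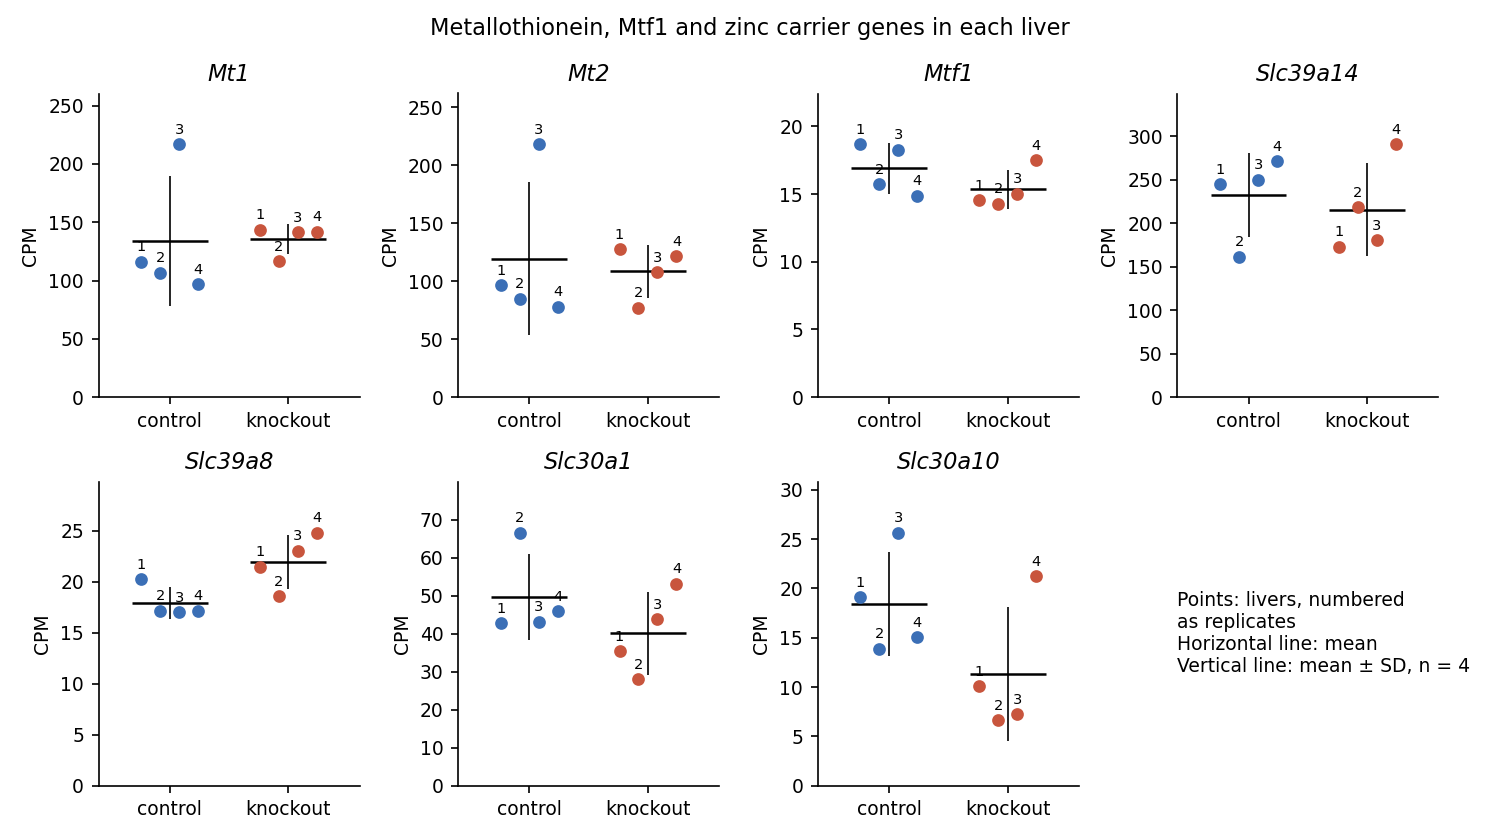
Level of each gene in each liver, in CPM on a linear axis from 0; points are livers numbered by replicate, horizontal lines are group means and vertical lines are the SD of 4 livers. Control 3 stands above the other controls for Mt1 and Mt2, and knockout 4 above the other knockouts for Slc30a10 (21.2 CPM against 6.65 to 10.1 CPM).

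Mt1 was at nearly the same mean level in both genotypes, and the spread of the controls came from control 3. Controls 1 to 4 had 116.3, 106.6, 217.0 and 97.0 CPM of it, and knockouts 1 to 4 had 143.6, 116.7, 141.6 and 141.7 CPM. The groups overlapped: 3 controls were below the lowest knockout, and control 3 was above every knockout. The control mean was 134.2 ± 55.7 CPM and the knockout mean 135.9 ± 12.8 CPM (SD, n = 4 each). Knockout against control, this gave a log2 fold change of 0.02 (SE 0.24, edgeR adjusted p = 0.981). Its 95% interval ran from 0.70-fold to 1.47-fold, so a change of up to about that size in either direction is within these data. Without control 3 the log2 fold change was 0.35 (adjusted p = 0.161), and leaving out other livers gave values from -0.12 to 0.08.

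Mt2 followed Mt1 from liver to liver. Controls 1 to 4 had 96.8, 85.1, 218.3 and 78.2 CPM, and the knockouts in the same order had 127.9, 77.1, 107.9 and 121.6 CPM. Control 3 was again the highest of all 8 livers, and knockout 2 the lowest. Means were 119.6 ± 66.3 CPM and 108.6 ± 22.6 CPM (SD, n = 4 each), with a log2 fold change of -0.14 (SE 0.34, edgeR adjusted p = 0.861) and a 95% interval from 0.52-fold to 1.57-fold. Leaving out control 3 turned the sign, to 0.32 (adjusted p = 0.361). The log2(TPM + 1) scale also turned it, to 0.068, and neither value passed the threshold. On that scale the median of all genes tested was 0.091.

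Summed over both genes, metallothionein transcripts made up 213.1, 191.7, 435.3 and 175.2 CPM over controls 1 to 4. Over knockouts 1 to 4 the sum was 271.4, 193.8, 249.5 and 263.4 CPM. The sum does not depend on how reads shared by these similar genes were divided between them. The control mean was 253.8 ± 122 CPM and the knockout mean 244.5 ± 35.0 CPM (SD, n = 4 each), and without control 3 the control mean was 193.3 CPM. The coefficient of variation (CV, SD over mean) was 41.5% for Mt1 and 55.4% for Mt2 in controls, and 9.44% and 20.8% in knockouts. Without control 3 the control CVs were 9.04% for Mt1 and 10.9% for Mt2, so the wider spread of the controls rested on that liver. A CV at least as high as that of Mt2 in controls was found for 3.89% of all genes tested, whose median was 13.8%, and for 61.2% when control 3 was left out of every gene.

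**Figure D2:**
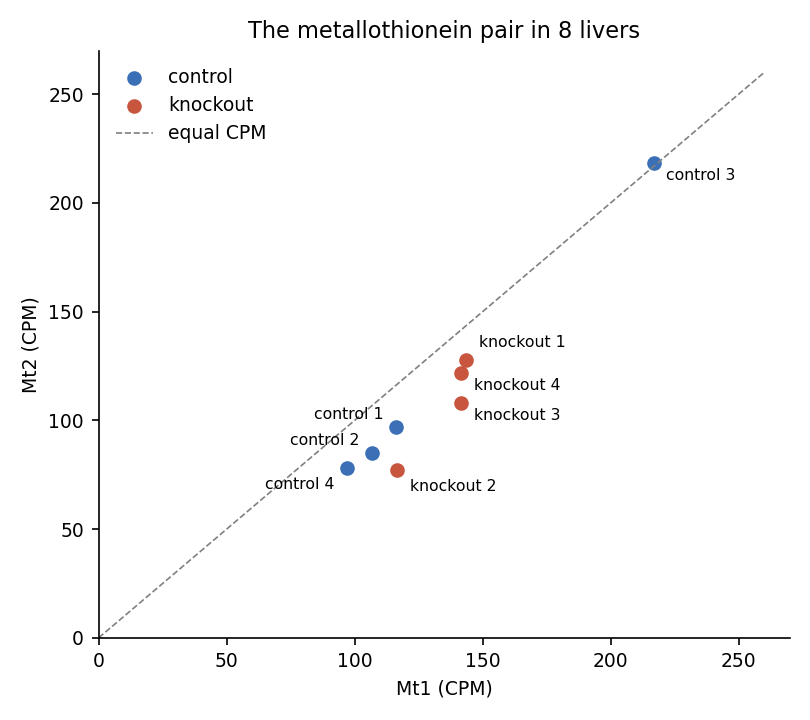
Mt2 against Mt1 in each of the 8 livers, both in CPM on linear axes, with a dashed line where they would be equal. Control 3, at 217.0 and 218.3 CPM, lies far from the others along the line and the 7 other livers lie below it.

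Across the 8 livers Mt1 and Mt2 varied together more closely than any other pair of the set. Pearson's r of their log2 CPM was 0.965 (exact permutation p = 0.000992, adjusted p = 0.0208 over the 21 pairs). Spearman's rho was 0.857 (exact permutation p = 0.0107, adjusted p = 0.225). Without the livers farthest from the median of Mt1, controls 3 and 4, r was 0.873, and after centring each genotype on its own mean it was 0.979. The ratio of Mt1 to Mt2 in TPM stayed between 0.869 (control 3) and 1.31 (knockout 2). By Pearson's r only this pair passed the adjusted threshold, and by rho no pair did. Mtf1 and Slc30a10 came next, with r = 0.851 (exact permutation p = 0.0129, adjusted p = 0.136) and rho = 0.810. Within 100 kb of the metallothionein pair, 4 of 10 annotated genes were tested, and the non-metallothionein genes among them, the BBSome gene Bbs2 and the nuclear pore gene Nup93, had log2 fold changes of 0.04 and 0.11 and were not called.

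Mtf1, the zinc sensor, was steady. Its level was 18.7, 15.7, 18.3 and 14.9 CPM over controls 1 to 4, then 14.6, 14.3, 15.0 and 17.5 CPM over knockouts 1 to 4. Knockouts 1 and 2 were just below every control, and knockouts 3 and 4 lay within the control range. Its log2 fold change of -0.14 (SE 0.11, edgeR adjusted p = 0.526) had a 95% interval from 0.77-fold to 1.07-fold, which with that of Slc39a8 was the narrowest of the set. Its 3' end overlaps 1110065P20Rik on the opposite strand, which had 1003 counts in controls and 1071 in knockouts, and reads of the overlap cannot be separated if the counting ignored strand. The same holds for Slc30a10 with Gm2061 (52 counts in controls, 33 in knockouts) and Slc30a1 with 1700034H15Rik (21 and 6), whose counts were few. The span of Slc39a8 overlaps Gm43429 (108 counts in controls, 130 in knockouts) and Gm43428 (27 and 22) on its own strand. Reads of bases shared with those could not be separated by strand.

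Of the importers, Slc39a14 was the more abundant and Slc39a8 the more even. For Slc39a14, controls 1 to 4 gave 244.8, 161.7, 250.1 and 271.6 CPM, and knockouts 1 to 4 gave 173.0, 218.4, 180.9 and 291.1 CPM. The lowest liver was control 2 and the highest knockout 4, so each group's range contained most of the other's. This gave a log2 fold change of -0.10 (SE 0.20, edgeR adjusted p = 0.809; 95% interval 0.68-fold to 1.27-fold). Without control 2 and knockout 4 it was -0.42 (adjusted p = 0.0761). On the log2(TPM + 1) scale it was 0.050, where the median of all genes tested was 0.091.

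The ZIP8 gene Slc39a8 had 20.3, 17.2, 17.0 and 17.2 CPM over controls 1 to 4, against 21.5, 18.6, 23.0 and 24.8 CPM over knockouts 1 to 4. All 4 knockouts were above 3 of the controls, and only control 1 reached into the knockout range, above knockout 2. The log2 fold change was 0.30 (SE 0.11) with an edgeR adjusted p of 0.183, which missed the threshold. Its unadjusted p was 0.0200, the one value under 0.05 in the set, where 18.5% of all genes tested were under 0.05. The interval, unadjusted for the number of genes, ran from 1.04-fold to 1.45-fold, and over 18 other settings of scaling, filter, test and livers left out the log2 fold change stayed between 0.21 and 0.37. Macrophages also express ZIP8, and the summed macrophage and Kupffer cell markers were 164.7 to 344.9 CPM in controls and 264.8 to 442.1 CPM in knockouts. Of these 10 markers 10 had positive fold changes, 4 had an unadjusted edgeR p under 0.05, 0 were called and 0 were at 0 in every liver. Other non-hepatocyte lists did not all move the same way. Endothelial markers had 7 of 7 positive fold changes, 2 unadjusted p under 0.05 and sums of 134.7 to 172.1 CPM in controls against 164.3 to 214.4 CPM in knockouts. Stellate and fibroblast markers had 8 of 8 positive, 3 unadjusted p under 0.05 and sums of 118.6 to 231.1 CPM in controls against 204.4 to 418.4 CPM in knockouts. In both lists 0 were called and 0 were at 0 in every liver. Cholangiocyte markers, given below, had 6 of 6 tested positive. Erythroid markers went the other way, with 5 of 5 tested negative and 3 unadjusted edgeR p under 0.05. Of them 1 was called lower, against 1.21% of all genes tested. Erythroid sums were 256.2 to 519.6 CPM in controls against 187.1 to 334.5 CPM in knockouts. The 1 lymphocyte marker tested was negative too (log2 fold change -0.38). The part of these cells in the Slc39a8 value was not tested, and in whole liver a different number of cells of a type and a different amount of RNA per cell cannot be told apart.

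Both exporters were lower on average in the knockouts, and neither difference passed the test. For Slc30a1, controls 1 to 4 gave 42.7, 66.6, 43.1 and 46.0 CPM, and knockouts 1 to 4 gave 35.4, 27.97, 43.7 and 53.1 CPM. Knockouts 1 and 2 were below every control, knockouts 3 and 4 were within the control range, and control 2 was the highest liver. They gave a log2 fold change of -0.31 (SE 0.21, edgeR adjusted p = 0.479; 95% interval 0.58-fold to 1.13-fold). It was -0.13 without control 2 and -0.48 without knockout 4, with adjusted p of 0.792 and 0.213.

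Slc30a10 counts came to 19.1, 13.9, 25.7 and 15.0 CPM over controls 1 to 4, and to 10.1, 6.65, 7.22 and 21.2 CPM over knockouts 1 to 4. Knockouts 1, 2 and 3 were below every control, while knockout 4 was above 3 of the 4 controls. Means were 18.4 ± 5.32 CPM and 11.3 ± 6.80 CPM (SD, n = 4 each). The log2 fold change of -0.70 (SE 0.39) had an edgeR adjusted p of 0.384 and a 95% interval from 0.33-fold to 1.15-fold. Left out in turn, knockout 4 was the only liver whose absence brought a call, with a log2 fold change of -1.21 and an adjusted p of 0.0400, where 2.77% of genes tested were called. Without control 2 and knockout 4 the values were -1.33 and 0.0288, with 3.22% of genes called. The other 7 fits without 1 liver gave -0.81 to -0.50 and adjusted p of 0.397 to 0.617. Its knockout CV of 60.2%, matched or exceeded by 2.46% of the genes tested, also rested on knockout 4, and without that liver it was 22.9%, matched or exceeded by 22.03%. Slc30a10 amounted to 4.92%, 5.49%, 6.03% and 3.46% of the TPM of Slc39a14, its counterpart in manganese transport, in controls 1 to 4, and to 3.54%, 1.83%, 2.34% and 4.46% in knockouts 1 to 4.

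**Figure D3:**
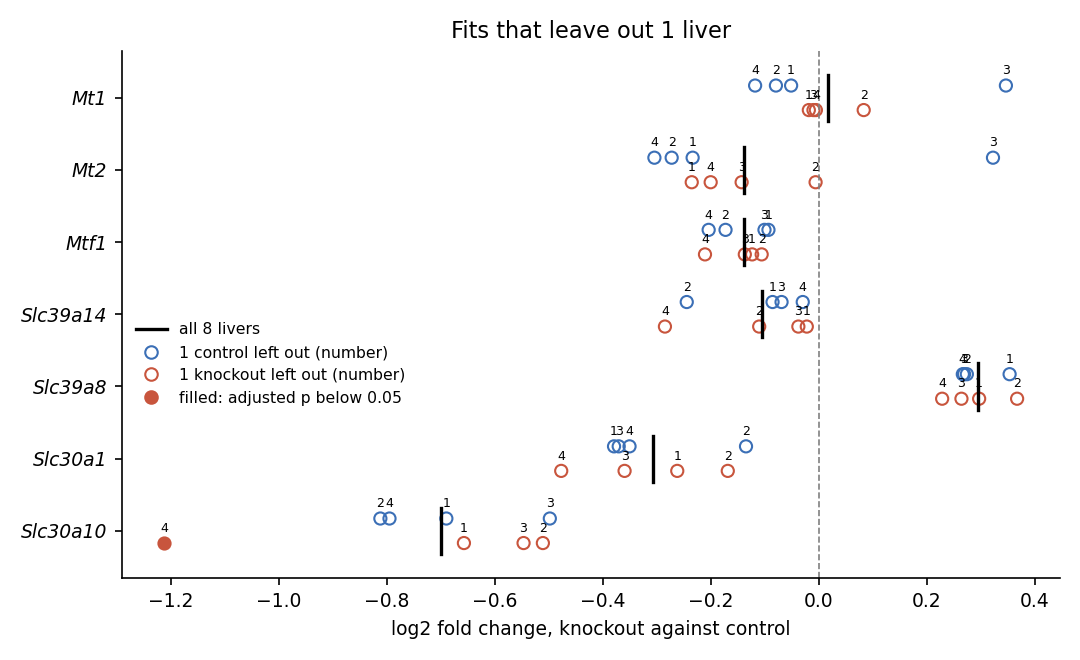
Log2 fold change of each gene, knockout against control, with all 8 livers (black bars) and with 1 liver left out (circles, with the number of the liver left out; blue for controls, red for knockouts, filled where the adjusted p was below 0.05). The only filled circle is Slc30a10 without knockout 4, at -1.21, and the values of Mt1 and Mt2 without control 3 lie right of zero, at 0.35 and 0.32.

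Counted together, 0 of the 7 genes were called higher by edgeR, where 0.849% of genes tested were (113), and 0 lower, where 1.21% were (161). With library size alone as the scaling the genes called were 161 higher and 115 lower, and on the log2(TPM + 1) scale 144 and 84, again with 0 of the 7. The median log2 fold change of all genes was then 0.073 and 0.091. DESeq2, which called 5.68% of the 14872 genes it tested, called 0 of the 7, as did limma-voom, while 1 had an unadjusted edgeR p under 0.05. Without control 2 and knockout 4 the log2 fold changes not given so far were -0.10 for Mt1, -0.33 for Mt2, -0.24 for Mtf1, 0.21 for Slc39a8 and -0.30 for Slc30a1, with adjusted p of 0.246 to 0.886. The groups overlapped for all 7, where 11.4% of genes tested had no overlap. Their median log2 fold change was -0.14, beside 0.00365 for all genes tested. Within groups, knockout 4 was the highest knockout for 5 of the 7 genes, knockout 2 the lowest for 6, and control 3 the highest control for 3. The genes share libraries and some varied together, so these counts are descriptive and were not tested. In control 3, 5 of 10 glucocorticoid response genes also had their highest control value and 2 had their lowest. The same liver was the highest control for 6 of 8 stellate and fibroblast markers. In control 2, 14 of 16 genes of the IL-6 and acute phase list had theirs, with a list sum of 35379 CPM against 9152 to 11598 CPM in the other controls. Their part in the levels of the 7 genes was not tested.

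**Figure D4:**
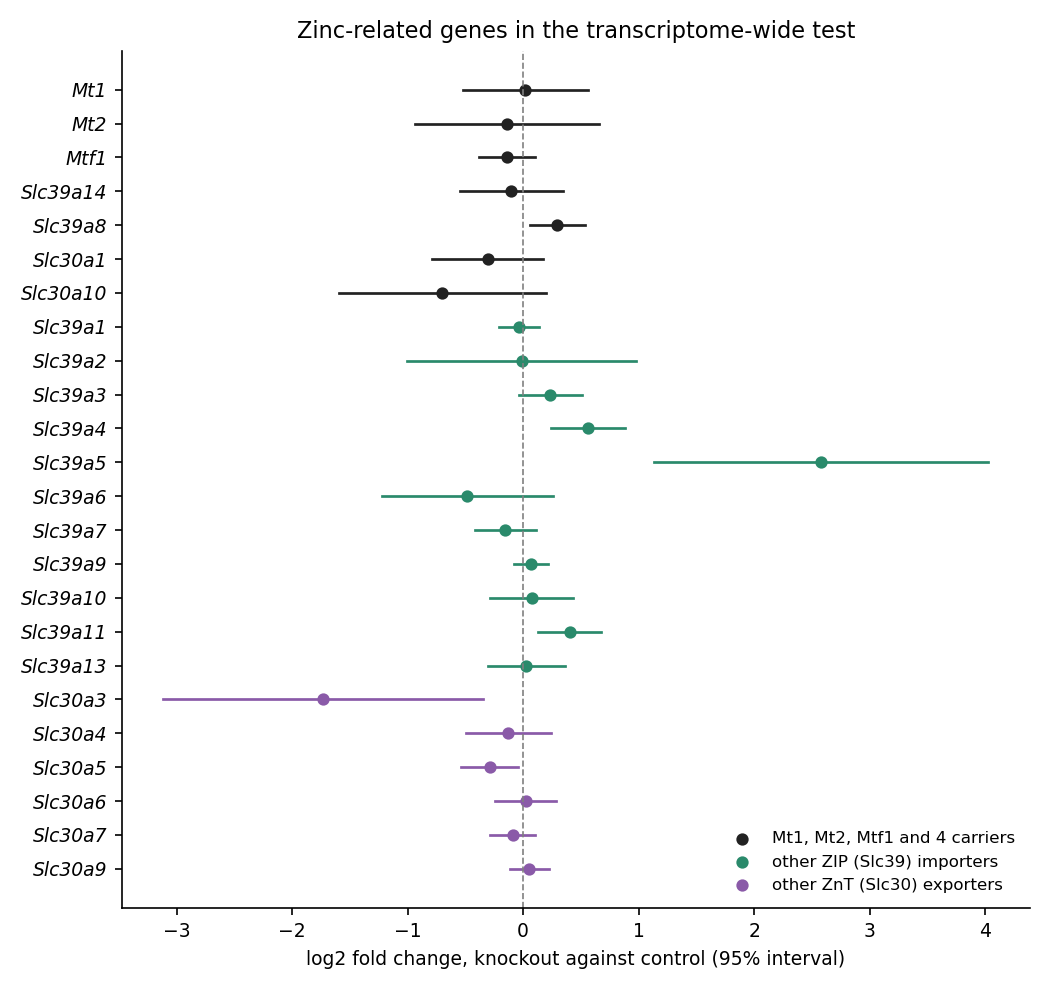
Log2 fold change with its unadjusted 95% interval for the 7 genes and for the tested genes of the other ZIP and ZnT carriers. Intervals of Mt1, Mt2, Mtf1, Slc39a14, Slc30a1 and Slc30a10 cross zero, and Slc39a5 and Slc39a4 lie farthest to the right, at 2.58 and 0.56.

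By likeness over the 8 livers, each gene was set beside 11946 tested genes that averaged 1 CPM or more, by Pearson's r of log2 CPM and without a test. Predicted, clone and pseudogene names were then left out, so the nearest genes given are those among the remaining names, and one left out may lie closer. Apart from each other, Mt1 was most like the secreted protein gene Crispld2 and the lipid transporter gene Abca9 (r = 0.898 for both). Mt2 was most like Ttc37 (0.946) and Nprl3 (0.939). For Mtf1 the nearest were Bsdc1 (0.953), Golga5 (0.947) and Zfp142 (0.941). Slc39a14 was nearest to the carboxypeptidase gene Cpd (0.955), to Tram2 (0.948) and to Gemin4 (0.947), and Slc39a8 to the calcium channel gene Cacna1d (0.954), Gvin1 (0.943) and Rabl2 (0.925). Slc30a1 was closest to Snrnp48 (0.986), Usp32 (0.979) and Nr2c2 (0.975). Slc30a10 was closest to G2e3 (0.987), Nrbp1 (0.964) and the osmotic stress factor gene Nfat5 (0.948). All these points share the 8 libraries and their depth. Each was picked as among the highest of the many values left after that exclusion, so they describe likeness and no more.

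The remaining carriers of the same families were also uncalled. Of the 12 other ZIP genes 11 were tested, 0 were called by edgeR and 2 by DESeq2. An unadjusted p under 0.05 was found for 3, all of them higher in knockouts. The median log2 fold change of these genes was 0.07. Of all genes tested, 2.06% were called by edgeR and 5.68% by DESeq2, and 18.5% had an unadjusted edgeR p under 0.05. The same shares stand beside the counts of the lists that follow. Slc39a4, the zinc importer ZIP4, had 73.2, 100.9, 75.5 and 67.9 CPM over controls 1 to 4, against 121.7, 136.2, 116.6 and 93.9 CPM over knockouts 1 to 4. Knockout 4 alone was within the control range, below control 2, with a log2 fold change of 0.56 (SE 0.14, edgeR adjusted p = 0.0840). It passed in 6 of 18 other settings, among them the fits without control 2 (0.70, adjusted p = 0.0259) and without knockout 4 (0.65, adjusted p = 0.0392). Slc39a5, the basolateral importer ZIP5, was at 0.361 to 1.34 CPM in controls and 1.77 to 9.06 CPM in knockouts, with no overlap and a log2 fold change of 2.58 (SE 0.64, edgeR adjusted p = 0.0846). DESeq2 called it and the 17 other settings did not. Summed cholangiocyte markers were at 26.8 to 64.7 CPM in controls and 116.9 to 364.2 CPM in knockouts. Of 6 tested 3 were called higher, against 0.849% of all genes tested. The part of the cholangiocyte markers in the Slc39a5 value was not tested.

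Among the 8 other ZnT genes, 6 were tested and 0 called by edgeR or DESeq2, with a median log2 fold change of -0.11 and 2 unadjusted p under 0.05, both lower in knockouts. Slc30a3, a vesicular exporter known from neurons, had few counts (56 over the controls, 19 over the knockouts), at 0.390 to 1.16 CPM in controls and 0.0449 to 0.443 CPM in knockouts (edgeR adjusted p = 0.180). Slc30a5, which loads zinc into the secretory pathway, was at 37.2 to 46.1 CPM in controls and at 32.6, 32.9, 31.2 and 41.2 CPM in knockouts 1 to 4 (log2 fold change -0.29, SE 0.11, edgeR adjusted p = 0.205). Slc30a2, the zinc exporter of secretory vesicles, had 0 counts.

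Reported targets of MTF1 outside the set (7 genes, 6 tested) had 0 calls by edgeR or DESeq2, 2 unadjusted p under 0.05 and a median log2 fold change of -0.03. Ndrg1, a stress-response gene, had a log2 fold change of 0.59 and the selenoprotein gene Selenow one of -0.28 (edgeR adjusted p = 0.234 and 0.237). Manganese and iron carriers (7 tested) had 0 calls by edgeR or DESeq2 with all livers, 2 unadjusted p under 0.05 and a median of -0.11. Without knockout 4 there was 1 call, Slc11a2 (-0.49, adjusted p = 0.0213). That gene encodes the divalent metal importer DMT1 and was at 23.9 to 27.4 CPM in controls and at 17.2, 18.6, 18.3 and 24.9 CPM in knockouts 1 to 4, the same high knockout 4 as for Slc30a10. It had a log2 fold change of -0.36 (SE 0.12, edgeR adjusted p = 0.156). Tmem165, linked to manganese supply of the Golgi, was at 5.48 to 6.36 CPM in controls and 6.72 to 8.03 CPM in knockouts, with no overlap (0.38, SE 0.11, edgeR adjusted p = 0.127).

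Copper handling genes, which share metallothionein as a buffer, had 0 calls of 13 by edgeR and 3 by DESeq2. They had 5 unadjusted p under 0.05 and a median log2 fold change of 0.03. Shares of all genes tested were 2.06% called by edgeR, 5.68% called by DESeq2 and 18.5% with an unadjusted edgeR p under 0.05. Atp7b, the biliary copper exporter, was at 18.0 to 25.8 CPM in controls and at 41.1, 37.3, 36.6 and 25.7 CPM in knockouts 1 to 4 (0.61, SE 0.16, edgeR adjusted p = 0.0878). It was called without knockout 4 (0.73, adjusted p = 0.0213) and without control 2 and knockout 4 (0.63, adjusted p = 0.00745). Sco2, which delivers copper to cytochrome oxidase, was at 20.0 to 29.7 CPM in controls and 30.4 to 40.3 CPM in knockouts, with no overlap (0.51, SE 0.13, edgeR adjusted p = 0.0867). Zinc enzymes of liver (15 tested) had 0 calls by edgeR or DESeq2, 0 unadjusted p under 0.05 and a median of -0.02. Within that list Bhmt, the zinc-dependent betaine-homocysteine methyltransferase, ran from 446.8 CPM in control 2 to 7175 CPM in knockout 1 (log2 fold change 1.13, SE 0.60, edgeR adjusted p = 0.363), and the carbonic anhydrase gene Car2 had a log2 fold change of 0.41 (adjusted p = 0.458). The plasma zinc carriers Alb and Hrg had log2 fold changes of 0.19 and -0.12 (edgeR adjusted p = 0.532 and 0.711), with 0 calls by edgeR or DESeq2 and 0 unadjusted p under 0.05.

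Genes linked to known inducers of metallothionein were read as lists, which hold receptor and regulator genes as well as targets. The lists do not measure inducer signal apart from the loss of Cebpa itself. Their bearing on the metallothioneins was not tested. Of all genes tested 2.06% were called by edgeR (1.21% lower) and 5.68% by DESeq2, and 18.5% had an unadjusted edgeR p under 0.05. In the glucocorticoid response 0 of 10 were called by edgeR and 2 by DESeq2, with 3 unadjusted p under 0.05. The median was -0.17. With 1 liver left out it ran from -0.26 (without knockout 3) to -0.035 (without knockout 4). The kinase gene Sgk1 was at 7.49 to 16.1 CPM in controls and 17.3 to 19.7 CPM in knockouts (log2 fold change 0.67, SE 0.19, edgeR adjusted p = 0.106), and was called without control 3. The receptor gene Nr3c1 was at 93.2 to 101.7 CPM in controls and 73.9 to 89.5 CPM in knockouts (-0.22, SE 0.08, edgeR adjusted p = 0.163). In the IL-6 and acute phase list, which includes the gene the series names with Cebpa, 1 of 16 was called lower by edgeR (Orm1) and 4 by DESeq2, 12 had an unadjusted p under 0.05 and the median was -1.19. The median was -0.70 without control 2 and -0.62 without control 2 and knockout 4. Orm1, a plasma acute phase protein gene, stood at 61.2 to 1413 CPM in controls and 0.183 to 2.77 CPM in knockouts (edgeR adjusted p = 0.0464), and 10 of 18 other settings did not call it, among them the fits without control 1, control 3 or any 1 knockout. Of the list 16 of 16 fold changes were negative, and the intervals of Il6ra, Il6st, Crp and Fgb spanned zero. The oxidative stress (NRF2) list had 0 calls of 11 by edgeR or DESeq2, 0 unadjusted p under 0.05 and a median of 0.07, with adjusted p of 0.376 for Prdx1 and 0.507 for Nqo1.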

How the data were processed

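Liver RNA was sequenced from polyadenylated RNA with a stranded TruSeq kit, per the labels' protocols. Per the submitters' processing notes, the tools were RSEM 1.2.22, STAR 2.5.1, Trimmomatic 0.36, Picard 1.84 and DESeq2, and the build mm10. How strand was treated in counting, and which annotation release was used, is not given in the sources used here. The authors deposited RSEM expected counts, estimated counts that need not be whole, and TPM values, which the authors scaled to gene length and a common total per liver. Coordinates come from GENCODE M21, which all 55450 identifiers matched, and promoters from RefSeq, where 6 of the 7 genes had a window.

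Groups and replicate numbers follow the titles. Expected counts were rounded and tested in R 4.3.3 with edgeR 4.0.16 (filterByExpr with minimum count 10 and total 15, TMM, robust quasi-likelihood test, two-sided, Benjamini-Hochberg over 13303 genes, threshold 0.05). CPM used TMM-scaled library sizes, and log2 CPM a prior count of 2. SEs come from the fold change and the F statistic, and intervals at 95% from edgeR's degrees of freedom. The members and lists were chosen with earlier results of these data known, and so was the pair of livers left out together. The labels give no batch. All 7 genes are named, with the called genes of each pathway list or else its 2 smallest adjusted p. For each gene its 3 most similar genes are named too, with predicted, clone and pseudogene names left out. Bbs2, Nup93, the overlapping genes and Slc30a2 were added as neighbours or for a count of 0, and Il6ra, Il6st, Crp and Fgb for their intervals after their values were seen. Steps were tested on simulated data. Other settings used DESeq2 1.42.0, limma 3.58.1 (voom, and trend on log2(TPM + 1)), a replicate block, livers left out (for the CVs, chosen after seeing the data), no robust estimation, RLE factors or library size alone as scaling, and either no filter or 1 CPM in at least 4 livers.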

Additional observations from a re-analysis of the deposited data

Results flagged for a closer look

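In groups of 4 livers, 8 of 52 groups checked held 1 liver separated from the other 3 by a large part of the group's range. Of the 8, 5 were among the 14 groups of the metallothionein, Mtf1 and carrier genes. The rule flags about 1 in 20 groups of independent, normally distributed values. These groups share livers and CPM need not be normal, so no excess over chance can be read from the counts. Control 3 was far above the other controls for Mt1 (217.0 CPM) and Mt2 (218.3 CPM). Knockout 2 was below the other knockouts for Mt1 (116.7 CPM). Control 1 was above the other controls for Slc39a8 (20.3 CPM), and control 2 for Slc30a1 (66.6 CPM). Outside the set, knockout 4 was above the other knockouts for Slc30a5 (41.2 CPM) and Orm1 (2.77 CPM), and control 2 was above the other controls for Orm1 (1413 CPM).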

How the results depend on the processing

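Over 18 other settings, Mtf1, Slc39a8, Slc30a1 and Slc30a10 kept the sign of their log2 fold change, and Slc30a10 was the one gene of the set that any setting called. Its value ranged from -1.21 to -0.50 with 1 liver left out and was -1.33 without control 2 and knockout 4, and the calls came without knockout 4 and without that pair. The set's number of calls was thus 0 to 1 with 1 liver left out and 1 without the pair. Mt1 turned sign with 1 liver left out (-0.12 to 0.35) and without the pair (-0.10). Mt2 turned with 1 liver left out (-0.30 to 0.32). On the log2(TPM + 1) scale Mt2 was 0.068 and Slc39a14 was 0.050, both below the median of all genes tested on that scale, 0.091. That median was 0.073 with library size alone and 0.00365 in the main fit. The part of this shift of scale in the turns of sign was not tested, nor was the cause of the other shifts.

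Genes called over the transcriptome numbered 274 with all livers, 844 with DESeq2 (387 higher, 457 lower) and 431 without the pair (185 higher, 246 lower). With 1 liver left out they numbered 108 to 372 (46 to 167 higher, 61 to 205 lower). On the log2(TPM + 1) scale 84 were lower. The block for the replicate number gave 176 (98 lower).

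The labels do not say whether the numbers in the titles pair the livers. Deviations of same-numbered livers correlated at 0.207, 0.009, -0.024 and -0.067. Differently numbered livers were not compared, so these values do not settle whether the livers are paired. With the replicate block, calls were 1 in the other ZIP genes, 1 in copper handling and 0 in the IL-6 list, and 0 of the 7 genes.

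Calls in the lists otherwise moved as follows. Other ZIP genes had 1 without a filter, 2 with DESeq2, 2 without the pair and 0 to 2 with 1 liver left out. Manganese and iron carriers had 1 without the pair and 0 to 1 with 1 liver left out. Copper handling had 1 with library size alone (median log2 fold change 0.11), 1 without a filter, 3 with DESeq2, 1 on the log2(TPM + 1) scale (median 0.11), 1 without the pair and 0 to 1 with 1 liver left out. The glucocorticoid list had 2 with DESeq2 and 0 to 1 with 1 liver left out. The IL-6 list had 0 with library size alone, 0 without a filter, 4 with DESeq2, 0 with limma-voom, 3 without the pair and 0 to 2 with 1 liver left out. Medians with 1 liver left out ran from -1.36 to -0.70 for the IL-6 list, and those near zero turned sign for MTF1 targets (-0.084 to 0.031), copper handling (-0.020 to 0.028), zinc enzymes (-0.032 to 0.064) and plasma zinc carriers (-0.056 to 0.083). The NRF2 median ranged from -0.033 to 0.11 with 1 liver left out.

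With 4 livers a group, the 95% intervals of Mt2 (0.52-fold to 1.57-fold) and Slc30a10 (0.33-fold to 1.15-fold) leave sizeable changes in either direction undecided for Mt2 and a sizeable fall undecided for Slc30a10. Slc30a3 and Slc39a5 rest on few counts.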
